A study of Mus musculus with 4 samples.

Results

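Adipocyte nuclei were a small population of the mouse right ventricle (RV), 110 of the 48428 nuclei kept from 4 single-nucleus RNA libraries (0.227%). They were chosen by their own transcripts. A nucleus counted as a member when it had at least 200 genes, under 10% of its molecules from mitochondrial genes, under 1% from the cardiomyocyte gene Ryr2, and at least 3 molecules (unique molecular identifiers, UMIs) summed over Plin1, Cidec, Adipoq, Pck1 and Adrb3, with at least 2 of these genes detected. The values of these 5 genes, and every comparison of the members with other nuclei, are therefore given as descriptions with no test.

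The study examined RVs of C57/BL6J mice of wild-type (WT) genotype on postnatal day (P) 21, after surgery on P7. Mice with RV volume overload (RVVO) had a fistula made between the abdominal aorta and the inferior vena cava, and sham mice were operated on without that step. There were 2 libraries in each group, named here sham 1, sham 2, RVVO 1 and RVVO 2. Whether a library was 1 mouse or a pool is not stated, so p-values measure only the spread between libraries, which may be technical, and the labels do not tie the injections of cyclosporine A or saline in the study's methods to these libraries. The libraries held 15568, 15430, 8700 and 13392 barcodes and 55516713, 51010039, 64739206 and 63422784 UMIs, and 12982, 14564, 8247 and 12635 nuclei were kept.

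Adipocytes store triglyceride in a lipid droplet and release fatty acids from it on hormonal demand. White adipocytes hold a single large droplet and secrete hormones such as adiponectin, leptin and, in mice, resistin, whereas brown adipocytes burn fatty acids to make heat through the uncoupling protein Ucp1. On the heart, fat cells lie under the epicardium along the atrioventricular groove and the large coronary vessels and around the pericardium, and there is little of this fat in the mouse.

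The members came almost wholly from 2 libraries, 1 of each group. Sham 1 had 0, sham 2 had 39, RVVO 1 had 4 and RVVO 2 had 67 adipocyte nuclei. These were 0%, 0.268%, 0.0485% and 0.530% of the nuclei kept, with exact (Clopper-Pearson) 95% intervals of 0 to 0.0284%, 0.190 to 0.366%, 0.0132 to 0.124% and 0.411 to 0.673%. By the limit of 3 counts used here for every count of 0, which is one-sided and so lower than the end of the two-sided interval, the 0 of 12982 nuclei of sham 1 allows a share of up to 0.0231%. These intervals and limits cover counting error only. The groups overlapped, since sham 2 lay above RVVO 1. The mean share was 0.134% ± 0.189 (SD, n = 2) in sham and 0.289% ± 0.341 (SD, n = 2) in RVVO, a difference of 0.155 percentage points (exact two-sided permutation test over the 4 libraries, p = 0.667, where 6 arrangements allow no p under 0.333). Without RVVO 2 the difference was -0.0854 points. A share counts nuclei in a dissected piece of tissue, so more fat in the piece and more adipocytes in the heart cannot be told apart.

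**Figure D1:**
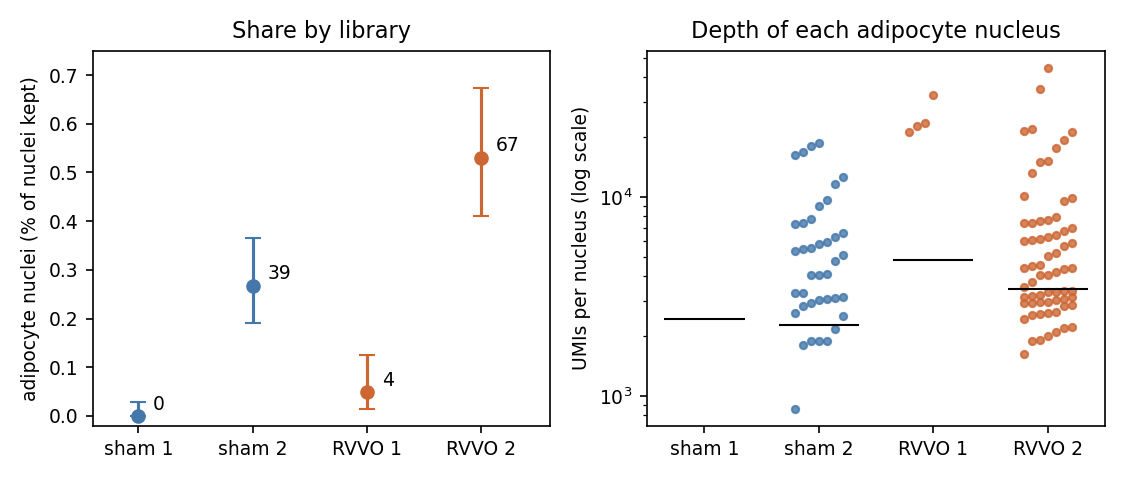
Left, adipocyte nuclei as a percentage of the nuclei kept in each library, with exact 95% intervals and the number of nuclei beside each point. Right, UMIs of each adipocyte nucleus on a log scale, with black lines at the median of all nuclei kept in that library. Sham 2 and RVVO 2 held 39 and 67 of the 110 nuclei, and the 4 nuclei of RVVO 1 had 21197 to 32562 UMIs.

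Sham 1 had few UMIs of these genes anywhere. Over all nuclei kept, the 5 genes had 31, 783, 108 and 960 UMIs in sham 1, sham 2, RVVO 1 and RVVO 2, and neither Cidec nor Adipoq had a UMI in any nucleus kept in sham 1. At least 3 UMIs from 1 of the 5 genes alone were found in 1, 1, 0 and 2 nuclei, and 2 UMIs from 2 genes in 0, 1, 0 and 0 nuclei, all of which stayed outside. Of the members, 0, 1, 0 and 2 had the minimum of 3 UMIs. A further 0, 4, 1 and 3 nuclei met the limit on marker UMIs but had 1.01 to 1.60% Ryr2. Nuclei with epicardial markers made up 0.300%, 0.618%, 0.327% and 0.617% of the libraries, and those with fibroblast markers 8.73%, 12.6%, 7.36% and 19.1%. Of 11 cell types with marker lists, 4 (epicardial, fibroblast, macrophage and B cell) had higher shares in both sham 2 and RVVO 2 than in both other libraries. Whether these shares bear on the adipocyte share was not tested.

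The depth of the members differed between libraries. The median adipocyte nucleus had 4766 UMIs and 2482 genes in sham 2, 23132.5 UMIs and 6129.5 genes in RVVO 1, and 4337 UMIs and 2384 genes in RVVO 2, where all nuclei kept had median counts of 2265, 4823 and 3442 UMIs. More than 4 times the median of their library was found in 7 of 39, 4 of 4 and 9 of 67 members (17.9%, 100% and 13.4%) and in 1.65%, 3.23% and 2.19% of the other nuclei with little Ryr2, so all members of RVVO 1 were very deep barcodes. Mitochondrial genes took a median of 0.671%, 0.720% and 0.408% of UMIs in the members and 1.58%, 0.954% and 0.713% in the other nuclei with little Ryr2. No barcode of a member occurred in another library. Removing the highest doublet scores would take 15, 1 and 22 members, that is 38.5%, 25% and 32.8% of them, against 12.3%, 6.97% and 10.7% of all barcodes of these libraries. The part of doublets in the values of the members was not tested.

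Cidec, a protein that fuses lipid droplets, and Plin1, which coats them, carried most of the choice. Cidec had 903 CPM (UMIs of a gene scaled to the same total in every sum) in the summed counts of the members of sham 2, 400 in RVVO 1 and 820 in RVVO 2, and 1.54, 0.0707 and 0.717 CPM in the other nuclei with little Ryr2. Plin1 had 513 CPM in sham 2 and 431 CPM in RVVO 2, with 122, 10 and 205 UMIs. Pck1, which makes the glycerol backbone of triglyceride in fat cells, had 609, 110 and 290 CPM. Adipoq, the gene of adiponectin, had 214, 40.0 and 101 CPM, and Adrb3, the adrenergic receptor of adipocytes, had 109, 10.0 and 56.7 CPM. A UMI of Cidec was present in 103 of the 110 nuclei, of Plin1 in 96, of Pck1 in 80, of Adipoq in 56 and of Adrb3 in 37. All 5 genes were detected in 14 nuclei, 4 in 28, 3 in 54 and only 2 in 14, and the nuclei with 4 or 5 genes were deeper than those with 2 or 3 in sham 2 (median 5094 and 3664 UMIs) and RVVO 2 (6412 and 3448.5 UMIs), but not in RVVO 1 (22366.5 and 27645.5 UMIs, 2 nuclei each). In GRCm38, Plin1 (ENSMUSG00000030546) lies at chr7:79720218-79732903 on the minus strand, Cidec (ENSMUSG00000030278) at chr6:113424634-113435760 on the minus strand, Adipoq (ENSMUSG00000022878) at chr16:23146536-23158028, Pck1 (ENSMUSG00000027513) at chr2:173153048-173159273 and Adrb3 (ENSMUSG00000031489) at chr8:27225776-27250616 on the minus strand.

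C/EBP factors and the pair of PPARG with RXRA are known regulators of adipocyte genes, so the 250 bases before each RefSeq start (GRCm38.p6) of the 5 chosen genes and of the 25 genes described next were searched for letters of these types on both strands. Of these 30 genes, 17 matched an entry, with 22 starts. The C/EBP type TTGCNNAA was in 3 of the 22, those of Plin1, of the second start of Cidec and of Ctcflos, and in 9.56% of all 32851 promoters. The direct repeat of the PPARG:RXRA type was in 0 of the 22 and in 0.338% of all, and TATAAA was in 2 of the 22 and in 12.4% of all. These 2 sequences show the match beside the genes that chose most nuclei. They are read 5′ to 3′ on the minus strand with TTGCNNAA in capitals, and no match of another type lies in them. The Plin1 sequence is chr7:79732904-79733026, the part of the window outside any annotated exon, and it holds 1 of the 2 matches in the 250 bases. The Cidec sequence is chr6:113434765-113435014, inside the gene but in no exon.
Plin1: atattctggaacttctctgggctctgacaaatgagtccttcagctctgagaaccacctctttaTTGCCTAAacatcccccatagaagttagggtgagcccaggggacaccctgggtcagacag
Cidec: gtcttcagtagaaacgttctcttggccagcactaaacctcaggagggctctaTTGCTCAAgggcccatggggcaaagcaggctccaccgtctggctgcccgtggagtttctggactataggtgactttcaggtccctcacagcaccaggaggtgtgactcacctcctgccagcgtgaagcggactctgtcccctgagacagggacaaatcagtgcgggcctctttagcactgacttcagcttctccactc
Such a match is a description of letters and not a binding site.

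Genes outside the rule gave the same nuclei an adipocyte profile. The 25 genes with the highest ratio of members to other nuclei, by the lower of the ratios in sham 2 and RVVO 2, were led by Acvr1c, the activin receptor ALK7 of adipocytes. It had 719 CPM in sham 2, 370 in RVVO 1 and 736 in RVVO 2, and at most 1.72 CPM in the other nuclei of sham 2 and RVVO 2. Car3, a carbonic anhydrase abundant in fat, had 1139 CPM in sham 2 and 1389 in RVVO 2 against 4.14 and 4.36 in other nuclei. Tshr, the receptor of thyrotropin, had 429 and 479 CPM against 0.952 and 0.807. Retn, the gene of resistin, had 202 and 141 CPM, and Cfd, the gene of adipsin, 416 and 216 CPM. Others of the 25 were Slc7a10, an amino acid transporter of white adipocytes, Lgals12, a lectin of lipid droplets, Pnpla3, a lipase-like droplet protein, Klb, the co-receptor of FGF21, Prkar2b, a regulatory subunit of protein kinase A, and Pcx, pyruvate carboxylase. The lower fold of the 25 ran from 25.6 for A530020G20Rik to 189 for Acvr1c. The ratios were also taken in the 10 members of both libraries that held under 3 UMIs, or 1 gene alone, of every other marker list but those of cardiomyocytes and lymphatic cells. The mean log2 ratio of the 25 had a median of 3.94 in those 10 and 5.84 over all members, and that of Acvr1c was 4.79 and 8.01. The 0.5 UMI added to each sum lowers a ratio more when fewer UMIs are expected, so these sizes cannot be compared and no lower level is read from them.

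These genes were spread over the members. A UMI of Acvr1c was found in 101 of the 110 nuclei, of Acss3 in 107, of Slc1a3 in 105, of Tenm4 in 104 and of Tshr in 85. Summed over the 25 genes, a nucleus had a median of 71 UMIs in sham 2 (0 to 265), 185 in RVVO 1 (64 to 323) and 63 in RVVO 2 (14 to 181). At least 3 of these UMIs were present in 38 of 39, 4 of 4 and 67 of 67 members and in 2.03%, 8.65% and 5.16% of the other nuclei with little Ryr2. The single member without any, in sham 2, had 864 UMIs, the fewest of all members. Because the 25 genes were picked on these nuclei, the counts describe how evenly the genes were found and are no independent test of the label.

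**Figure D2:**
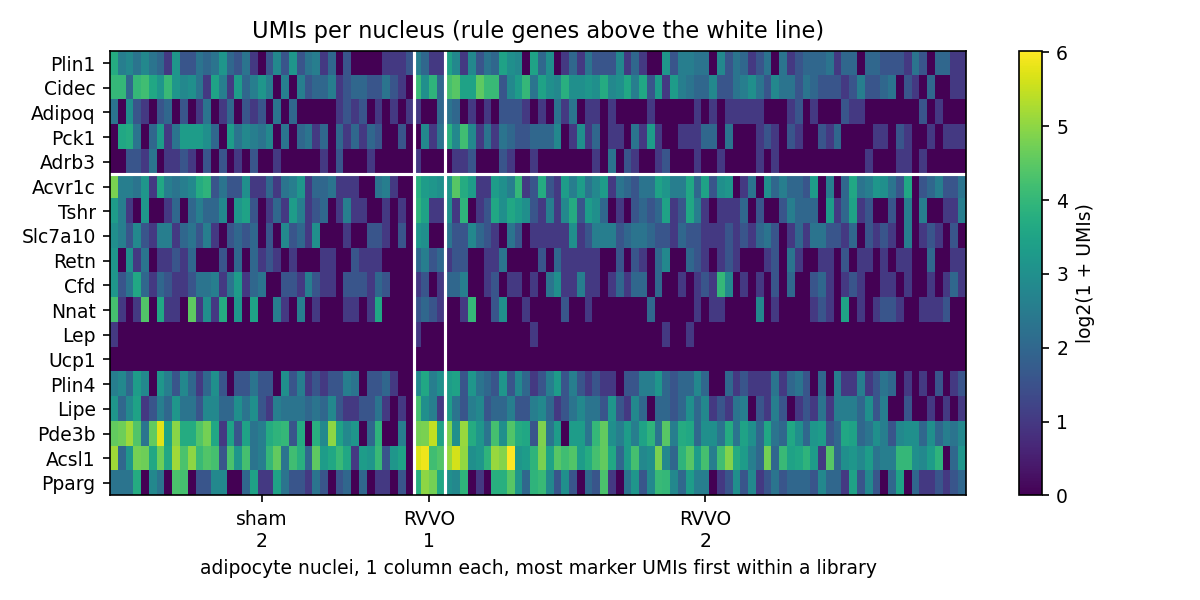
UMIs per nucleus as log2(1 + UMIs) for 18 genes (rows) in the 110 adipocyte nuclei (columns), ordered by library and by the number of marker UMIs. The 5 rule genes lie above the white horizontal line. Acsl1 and Pde3b were found in nearly all nuclei, Lep in 5 and Ucp1 in 0.

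The genes of fat storage and release were described by lists, each beside all 8159 genes with at least 5 expected or observed UMIs in both sham 2 and RVVO 2. Of these 8159 genes, 449 were at least 2-fold higher in the members than in other nuclei in both libraries (5.5%) and 202 at least 2-fold lower (2.48%), and their median log2 ratio was -0.05. Of 96 measured genes on 11 adipocyte lists, 41 were at least 2-fold higher in both and 4 lower. The nuclei were chosen by adipocyte genes, so this count is not evidence of a difference.

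Lipolysis genes stood highest among the lists of fat metabolism. Of 8 measured, 7 were at least 2-fold higher in both libraries, with a median of 5.48-fold over the list. Pde3b, the phosphodiesterase through which insulin stops lipolysis, had 2042 CPM in sham 2, 1060 in RVVO 1 and 1206 in RVVO 2, which was 23.5-fold and 15.5-fold above the other nuclei of sham 2 and RVVO 2. Lipe, hormone-sensitive lipase, had 597, 310 and 412 CPM and was 6.88-fold and 5.82-fold above them. Pnpla2, adipose triglyceride lipase, had 160, 120 and 135 CPM, at 2.58-fold and 2.45-fold. Abhd5, the co-activator of that lipase, had 206, 170 and 212 CPM, and G0s2, its inhibitor, 172, 230 and 164 CPM, so that the lipase, its activator and its inhibitor were all above other nuclei. Mgll, which splits the last fatty acid off, was the exception, at 832 and 551 CPM in sham 2 and RVVO 2 against 869 and 517 CPM in other nuclei and 1846 and 1278 CPM in endothelial-marker nuclei.

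Triglyceride synthesis was nearly as uniform, with 7 of 9 measured genes at least 2-fold higher in both libraries and a median of 3.80-fold. Gpd1, which supplies glycerol phosphate, was 26.5-fold and 22.1-fold higher in sham 2 and RVVO 2. Lpin1, the phosphatidate phosphatase, was 15.3-fold and 7.02-fold higher, and Gpam, the first acyltransferase, 8.96-fold and 8.72-fold. The final acyltransferases Dgat1 and Dgat2 were 7.77-fold and 3.91-fold higher in sham 2 and 6.99-fold and 3.68-fold in RVVO 2. Lpin2, with 0 and 3 UMIs, was too low to be measured.

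Making new fatty acids was less marked, at 4 of 9 measured genes. The regulators Mlxipl (ChREBP) and Thrsp were 29.3-fold and 9.53-fold higher in sham 2 and 12.4-fold and 14.8-fold higher in RVVO 2. Acaca, acetyl-CoA carboxylase 1, was 2.37-fold and 3.69-fold higher, whereas Acly, at 1.11-fold and 1.23-fold, was near the level of other nuclei. Fasn, fatty acid synthase, had only 2, 4 and 13 UMIs in the members of sham 2, RVVO 1 and RVVO 2.

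Uptake of fatty acids set these nuclei little apart from their neighbours. Only 2 of 10 genes were at least 2-fold higher in both libraries, Acsl1, the acyl-CoA synthetase, at 2256 and 1942 CPM in sham 2 and RVVO 2 (16.9-fold and 10.5-fold), and the transporter Slc27a1 (13.2-fold and 5.31-fold). Fabp4, often used to mark adipocytes, had 1294 and 1084 CPM in the members and 1542 and 1819 CPM in endothelial-marker nuclei. Cd36 and Lpl, of the fatty acid transporter and lipoprotein lipase, were at 0.970-fold and 1.17-fold of other nuclei in sham 2 and 0.826-fold and 1.20-fold in RVVO 2. The master regulator Pparg was likewise shared, with 584 and 702 CPM in the members and 857 and 794 CPM in endothelial-marker nuclei.

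Of the droplet proteins, Plin4 had 492 and 389 CPM in sham 2 and RVVO 2 against 36.0 and 52.1 CPM in other nuclei, and Bscl2 (seipin) was 3.70-fold and 4.30-fold higher, while Plin3 was at 0.411-fold and 0.482-fold. On the list, 5 of 10 measured genes were higher and 1 lower in both. Among secreted factors 4 of 8 were higher, which were Retn, Cfd, Agt, the gene of angiotensinogen (21.7-fold and 28.2-fold), and Nrg4 (25.5-fold and 16.0-fold), and Sparcl1 was lower. Among the transcription factors of fat cells 3 of 12 were higher, Zfp423 (4.16-fold and 3.70-fold), Klf15 (3.86-fold and 3.12-fold) and Nr1h3 (4.60-fold and 3.43-fold). Ebf1 and Ebf2, needed for adipogenesis, had levels of the same order as pericyte-marker and fibroblast-marker nuclei. Ebf2 had 445 and 395 CPM in the members and 1216 and 776 CPM in fibroblast-marker nuclei.

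Receptors and insulin signalling genes were higher for 7 of 14 measured genes. Ghr, the growth hormone receptor, had 2693, 4329 and 3438 CPM in sham 2, RVVO 1 and RVVO 2, 3.61-fold and 4.34-fold above other nuclei in sham 2 and RVVO 2. Irs1 and Irs2, the insulin receptor substrates, were 3.05-fold and 4.06-fold higher in sham 2 and 2.56-fold and 2.82-fold in RVVO 2. The receptor Insr was 2.54-fold and 1.96-fold higher. Slc2a4, the insulin-regulated glucose transporter, had 5, 4 and 11 UMIs and was at 1.04-fold and 1.07-fold. Markers of preadipocytes were mostly below other nuclei, with 1 of 9 higher and 2 lower, and Dlk1 had 0 UMIs in all 110 nuclei.

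**Figure D3:**
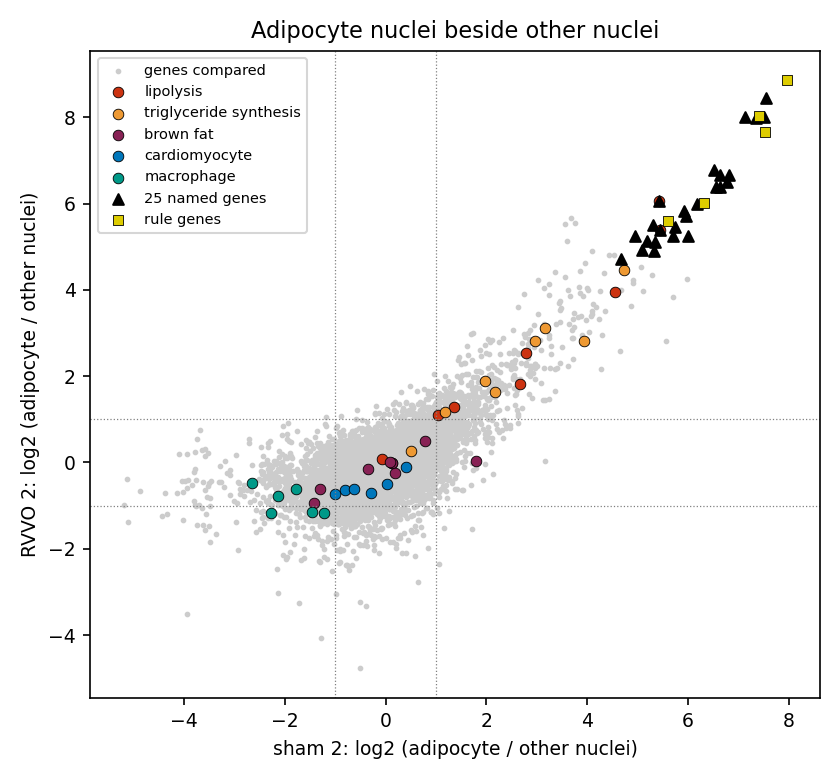
Log2 ratio of adipocyte to other nuclei in sham 2 (horizontal) and RVVO 2 (vertical) for the 8159 genes compared, with dotted lines at 2-fold. The rule genes and the 25 named genes lie above 4 on both axes, and 7 of 8 lipolysis and 7 of 9 triglyceride synthesis genes at 1 or more on both. Of the brown fat genes 5 of 8 and of the cardiomyocyte genes 5 of 6 lie within 1 of 0 on both axes, with Cox7a1 and Cox8b below -1 and Kcnk3 above 1 in sham 2.

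Brown fat genes did not set these nuclei apart. Ucp1, Elovl3 and Lhx8 had 0 UMIs in the 110 nuclei, which hold 813829 UMIs together, so each could have had up to 3.69 CPM. Otop1 and Zic1 had 1 UMI each, and Cidea had 6. Of 8 brown fat genes measured, 0 were at least 2-fold higher in both libraries. Ppargc1a, a driver of mitochondrial biogenesis, had 987 CPM in sham 2 and 1812 in RVVO 2, below the 10067 and 8368 CPM of cardiomyocyte nuclei. The mitochondrial genes Cox7a1 and Cox8b were at 0.376-fold and 0.408-fold of other nuclei in sham 2 and 0.520-fold and 0.652-fold in RVVO 2.

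White fat genes were present, but not all of them. The 3 measured genes of the list, Retn, Slc7a10 and Nnat, were at least 2-fold higher in both libraries. Slc7a10 had 370, 150 and 294 CPM in sham 2, RVVO 1 and RVVO 2, and a UMI was found in 90 of 110 nuclei. Lep, the gene of leptin, had 5 UMIs in 5 of the 110 nuclei, and the nuclei kept in the 4 libraries had 0, 2, 2 and 4 UMIs in all. Hoxc8, Hoxc9 and Hoxc10, genes of posterior body position found in some white fat, and Hoxa7 had 0 UMIs in the members. After thinning each nucleus to 1000 UMIs, 0 of 38 nuclei in sham 2 and 0 of 67 in RVVO 2 had a UMI of Ucp1 or Lep, which allows a share of nuclei with a UMI at that depth of up to 7.89% and 4.48% and sets no limit on nuclei that express them. A Retn UMI was then found in 23.7% and 19.4%, against 0% and 0.0582% of endothelial-marker nuclei. Those nuclei, given for comparison, had median depths of 2042 and 2683 UMIs before thinning, and free RNA was not estimated. For Fabp4 the same shares were 73.7% and 68.7% in adipocyte nuclei and 66.7% and 70.4% in endothelial-marker nuclei.

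**Figure D4:**
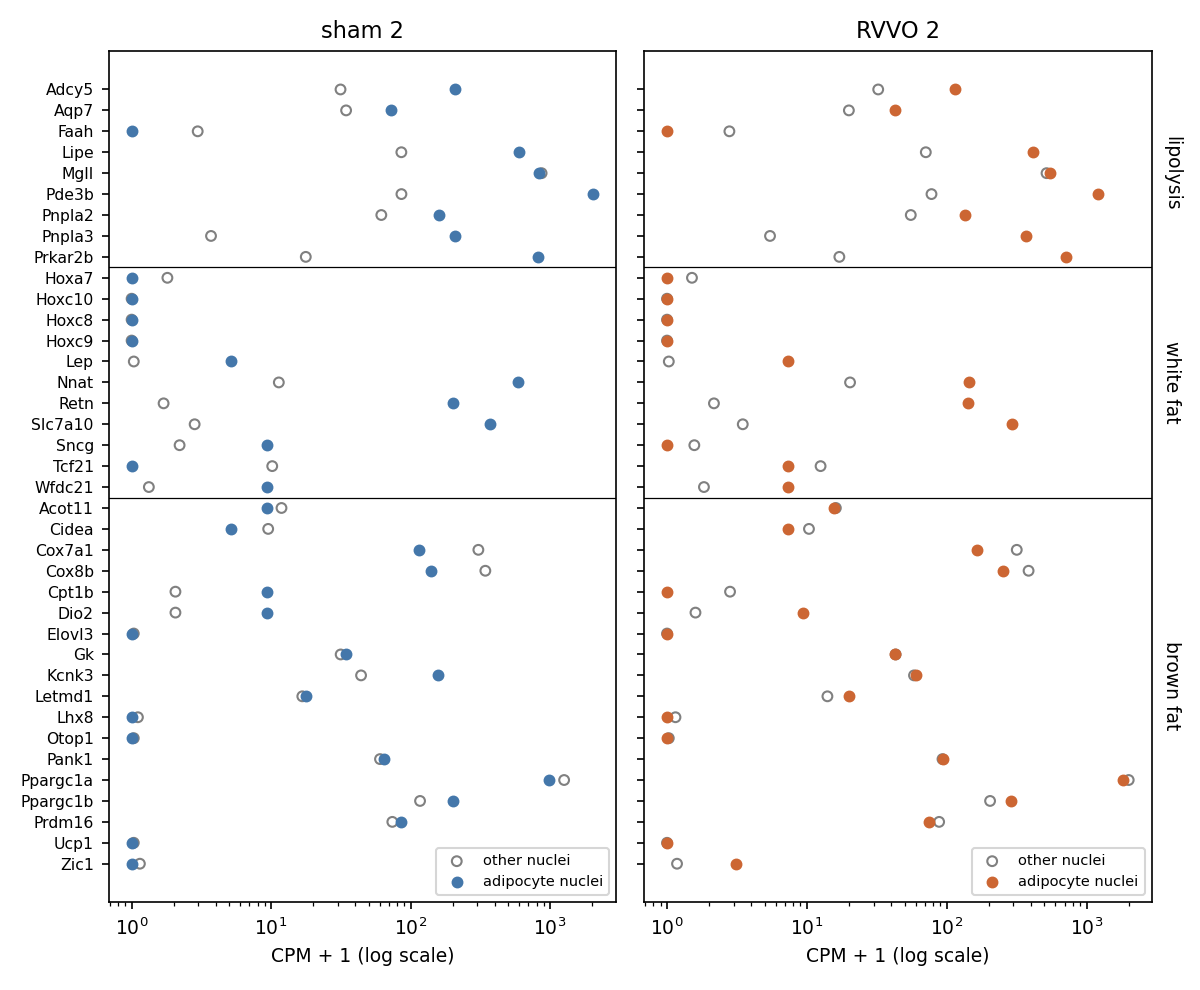
CPM + 1 on a log scale for the genes of the lipolysis, white fat and brown fat lists in adipocyte nuclei (filled) and other nuclei with little Ryr2 (open) of sham 2 and RVVO 2. Filled and open points lie far apart for Pde3b, Prkar2b, Retn and Slc7a10 and close together for Ucp1, Elovl3 and Ppargc1a.

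Transcripts of other cell types were also present in these nuclei. Cardiomyocyte markers summed to 14283 CPM in the members and 16766 in other nuclei in sham 2, and to 14177 and 20156 CPM in RVVO 2. Ttn was the most abundant of the 6, none was at 0, and 0 of 6 differed by 2-fold in both libraries, though Ryr2 was among the genes of the rule. Fibroblast markers summed to 824 and 1995 CPM in sham 2 and 1564 and 2679 CPM in RVVO 2, led by Gsn. Endothelial markers summed to 1677 and 2657 CPM and to 769 and 1790 CPM, led by Flt1, and macrophage markers to 160 and 551 CPM and to 456 and 869 CPM, led by F13a1. Pericyte markers summed to 584 and 1157 CPM in sham 2 and 481 and 815 CPM in RVVO 2, led by Abcc9, and epicardial markers to 96.6 and 288 CPM and to 284 and 304 CPM, led by Muc16. Smooth muscle markers summed to 315 and 254 CPM in sham 2 and 79.9 and 180 CPM in RVVO 2, led by Mylk, with Cnn1 at 0. Of all markers of other cell types that were measured, 0 were at least 2-fold higher in both libraries on any list, counting 6 pericyte, 5 epicardial, 4 smooth muscle, 3 glial, 2 B cell, 4 erythroid and 3 lymphatic genes, and no T or natural killer cell gene was high enough to be measured. At least 3 UMIs of at least 2 cardiomyocyte markers were found in all 110 members. With the cardiomyocyte and lymphatic lists left out, at least 3 UMIs of at least 2 markers of 1 other cell type were found in 35 of 39, 4 of 4 and 61 of 67 members, and in 88.5%, 99.9% and 96.0% of the other nuclei with little Ryr2 of the same libraries.

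The adipocyte nuclei of sham 2 had the transcripts of females, and those of RVVO 1 and RVVO 2 had the transcripts of males. Xist was found in 39 of 39 members of sham 2, 1 of 4 of RVVO 1 and 1 of 67 of RVVO 2, and a gene of chromosome Y in 0, 4 and 61. The other nuclei of sham 1 had 1493 CPM of Xist. In every difference between the groups, the sex of the mice and the surgery cannot be told apart.

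Few genes of the adipocyte lists differed by 2-fold between the adipocyte nuclei of sham 2 and RVVO 2. Between the best-filled library of each group, sham 2 and RVVO 2, which allow no test, 445 of 6417 genes with at least 20 UMIs were at least 2-fold higher in RVVO 2 (6.93%) and 247 at least 2-fold lower (3.85%). Of 89 genes on the adipocyte lists, 4 were higher and 3 lower, with a median log2 ratio of -0.26, against 0.02 over all genes. These counts are near the shares over all genes and are no result about the lists. The 4 were Scd1 (1 and 20 UMIs in sham 2 and RVVO 2), Npr3 (0 and 28), Dpp4 (0 and 20) and Pdgfra (9 and 75). A single nucleus of RVVO 2 held 13 of the 20 UMIs of Scd1. Dpp4 and Pdgfra are on the preadipocyte list, of which 2 of 7 genes were higher and 0 lower, with a median log2 ratio of -0.26, and Pdgfra is on the fibroblast list too. In RVVO 1 Pdgfra had 3 UMIs, a lower level than in sham 2. Neither Pdgfra nor Dpp4 was called in the group test described below (edgeR adjusted p = 0.878 and 0.919). Of the fibroblast list, 3 of 6 genes were higher and 0 lower in RVVO 2, with a median log2 ratio of 1.03, and at least 3 UMIs of at least 2 fibroblast markers were found in 24 of 39 members of sham 2 and 56 of 67 of RVVO 2. Their part in the values of Pdgfra was not tested. The 3 were Nnat (140 and 68 UMIs), Kcnk3 (37 and 28) and Angptl4 (23 and 15), where the total of RVVO 2 was larger, 475824 against 237981 UMIs. Of the 5 rule genes, Pck1 and Adipoq were at least 2-fold lower in RVVO 2, and since the rule requires their UMIs, nothing is read from this.

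A test was possible with sham 2 against RVVO 1 and RVVO 2, in which the single sham library is taken to vary as the RVVO libraries do. edgeR's quasi-likelihood test with Benjamini-Hochberg adjustment called 33 of 6038 genes, 24 higher (0.397%) and 9 lower (0.149%) in RVVO. Of these, 6 were genes of chromosome Y or of the X-inactivation centre (Uty, Ddx3y, Eif2s3y, Kdm5d, Xist and Tsix), which leaves 20 higher and 7 lower. Of 88 adipocyte-list genes tested, leaving out the rule genes, 3 were called, which were Nnat, Scd1 and Npr3. At an unadjusted p under 0.05 there were 259 genes. DESeq2 called 3 genes, Xist, Tsix and Rbfox1.

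Nnat was the 1 of 3 tested genes of the white fat list to pass the test, and it was lower in RVVO. The others, Retn and Slc7a10, had log2 fold changes of -0.56 and -0.66 (edgeR adjusted p = 0.998 for each). Neuronatin, its product, is a membrane protein of the endoplasmic reticulum. It had 588 CPM in sham 2, 80.0 in RVVO 1 and 143 in RVVO 2, with UMIs in 22 of 39, 4 of 4 and 26 of 67 nuclei. Both RVVO libraries lay below sham 2 (log2 fold change -2.29, SE 0.48, edgeR adjusted p = 0.000915). This SE was back-calculated from the fold change and the F statistic of the test, and is not a spread measured between libraries. In the other nuclei, Nnat had 10.4 CPM in sham 2, 9.37 in RVVO 1 and 19.4 in RVVO 2. Zim1, a zinc finger gene, had 231, 10.0 and 71.5 CPM, and Ntrk2, the receptor of brain-derived neurotrophic factor, 181, 0 and 31.5 CPM. In pooled counts Zim1 was 3.80-fold lower and Ntrk2 6.94-fold lower in RVVO, with 95% counting intervals of 2.44 to 5.99 and 3.78 to 13.4, and neither gene was above 7.40 CPM in other nuclei of any library. Of 5 alternative settings, DESeq2 included, 4 kept the call of Nnat, 4 that of Ntrk2 and 2 that of Zim1.

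Scd1 was the 1 of 9 tested genes of fatty acid synthesis to pass the test, and it was higher in RVVO. The other 8 had log2 fold changes from -0.86 for Acacb, an acetyl-CoA carboxylase, to 0.81 for Acaca, its paralog (edgeR adjusted p = 0.998 for each), and the median of the 9 was 0.04. Stearoyl-CoA desaturase, its product, puts the double bond into oleate. It had 1 UMI in sham 2, 16 in RVVO 1 and 20 in RVVO 2, that is 4.20, 160 and 42.0 CPM. Both RVVO libraries were higher, and the ratio of the pooled counts was 14.9, with a 95% counting interval of 2.51 to 604 (edgeR adjusted p = 0.0375). The UMIs came from 9 nuclei in all, and 2 nuclei held 28 of the 37. Of 5 alternative settings, only RLE factors kept this call. Without the very deep barcodes there were 1 and 17 UMIs in sham 2 and RVVO 2.

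The remaining calls included genes of other cell types. Ptprc, the leukocyte antigen CD45, had 0, 3 and 48 UMIs in sham 2, RVVO 1 and RVVO 2, at least 7.03-fold higher in RVVO against a limit of 3 UMIs in sham 2 (edgeR adjusted p = 0.00838). The 48 UMIs of RVVO 2 lay in 16 of 67 nuclei. The 6 macrophage markers summed to 38, 2 and 217 UMIs, in sham 2, RVVO 1 and RVVO 2, that is 160 CPM in sham 2 and 456 CPM in RVVO 2, with RVVO 1 below both. Of the B cell markers Bank1, which was not called (edgeR adjusted p = 0.922), had 2, 0 and 39 UMIs, with Cd79a at 0. A single nucleus of RVVO 2 held 15 of the 39. The other B cell marker tested, Ebf1, had a log2 fold change of 0.03, and the B cell list summed to 2794, 3519 and 2305 CPM. At least 3 UMIs of at least 2 macrophage markers were found in 2 of 39, 0 of 4 and 16 of 67 members. Postn, a matrix protein of fibroblasts, had 0, 24 and 13 UMIs, and Npr3, the clearance receptor of natriuretic peptides and also on the hormone list, 0, 9 and 28. The fibroblast list, which leaves out Postn, summed to 824, 650 and 1564 CPM in sham 2, RVVO 1 and RVVO 2. Muc16, a mucin of the epicardium, had 2, 11 and 53 UMIs, Vwf of endothelial cells 8, 43 and 20, and Col4a3, of basement membrane collagen, 1, 31 and 27. The other epicardial marker tested, Wt1, had a log2 fold change of -0.08 (edgeR adjusted p = 0.998). The epicardial list, which holds Muc16, summed to 96.6, 230 and 284 CPM in sham 2, RVVO 1 and RVVO 2. In RVVO 1, 1 nucleus held 21 of the 24 UMIs of Postn, and 1 held 8 of the 9 of Npr3. For Muc16, Vwf and Col4a3, the RVVO 1 nucleus with most UMIs held 11 of 11, 41 of 43 and 21 of 31. Without the very deep barcodes Vwf had 1 and 9 UMIs in sham 2 and RVVO 2. The endothelial list, which leaves out Vwf, summed to 1677, 2439 and 769 CPM in sham 2, RVVO 1 and RVVO 2. Of its 6 genes, 0 were at least 2-fold higher and 2 at least 2-fold lower in RVVO 2 than in sham 2. Of the glial list, Cadm2, a cell adhesion gene, was lower in RVVO, with 34, 0 and 13 UMIs (log2 fold change -2.78, edgeR adjusted p = 0.00877), and 31 of the 34 lay in 1 nucleus of sham 2. With at least 5 marker UMIs per nucleus, Cadm2 was not called. Under that setting Muc16 and Col4a3 were still called and Ptprc, Postn, Npr3 and Vwf were not. Of the 5 alternative settings, 1 kept the call of Vwf. The part of other cells in these calls was not tested.

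Rbfox1, a splicing regulator of neurons and muscle, was the 1 call outside the sex genes that all 5 alternative settings kept. It had 22, 121 and 238 UMIs in 10, 2 and 20 nuclei of sham 2, RVVO 1 and RVVO 2 (log2 fold change 3.17, edgeR adjusted p = 0.000116). One nucleus of RVVO 1 held 117 of its 121 UMIs and one of RVVO 2 held 92 of its 238. In the other nuclei it had 282 CPM in sham 2, 477 in RVVO 1 and 453 in RVVO 2.

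A few nuclei carried many UMIs of the called genes. Of the 27 calls outside the sex genes, 7 had at least 50% and 20 at least 20% of their UMIs in a single nucleus. Of the 20 that rose, 13 had at most 2 UMIs in sham 2, and 7 had at least 50% of their RVVO UMIs in the 4 very deep nuclei of RVVO 1. Without the very deep barcodes RVVO 1 has no members, and with counts under the limit of 3 UMIs set to 3, 16 of the 27 differed by at least 2-fold in the same direction between sham 2 and RVVO 2, 9 higher and 7 lower. Those nuclei were part of the test, so this count is a description. Snx17, a sorting nexin, was spread over more nuclei, with 1, 26 and 119 UMIs in 1, 4 and 47 nuclei (edgeR adjusted p = 1.32e-06), and it differed in the other nuclei too, at 18.3 and 14.7 CPM in sham 1 and sham 2 and 117 and 137 CPM in RVVO 1 and RVVO 2.

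**Figure D5:**
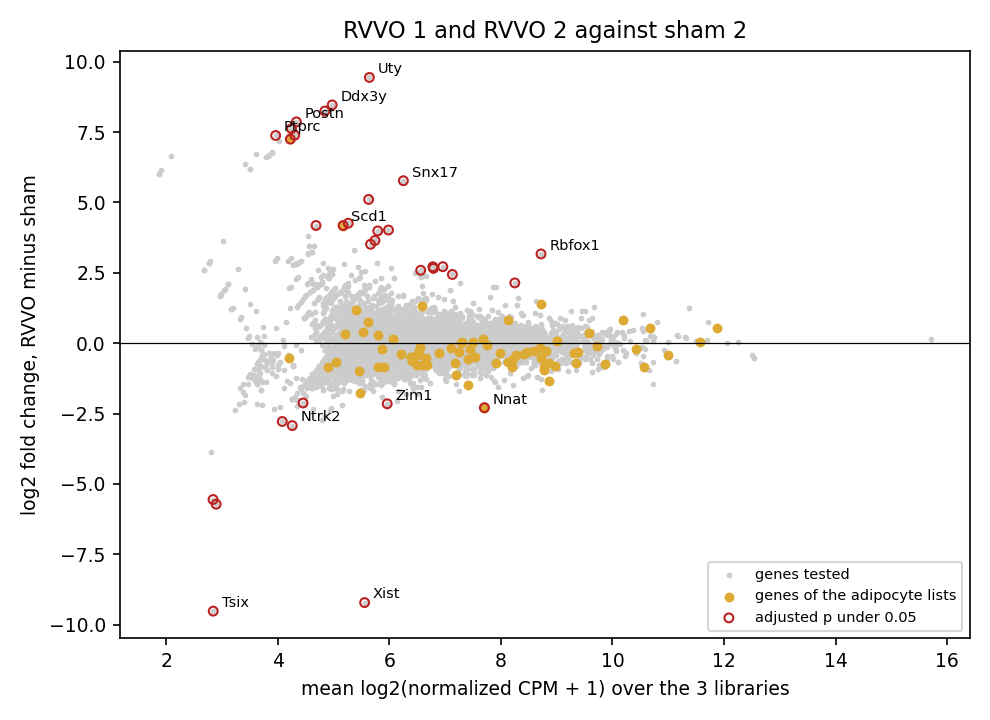
Log2 fold change of RVVO 1 and RVVO 2 against sham 2 in adipocyte nuclei, over the mean log2 of normalized CPM + 1, for 6038 genes. Genes of the adipocyte lists (filled, the brown fat and preadipocyte lists left out) lie mostly near 0. The 33 genes called by edgeR (open circles) include those of chromosome Y above and Xist and Tsix below.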

How the data were processed

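Nuclei of P21 RVs were measured with the 10x Genomics 3′ protocol. The authors deposited UMI counts per gene and barcode for 4 libraries, 27998 genes each. Per the file headers the counts came from Cell Ranger 5.0.0, while the submitters' processing notes name Cell Ranger 3.0.1, STAR, Seurat 3.0.2 and the builds GRCm38 and mm10. The members and the gene lists were chosen with earlier results of these data known.

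A barcode was kept with 200 genes or more and less than 10% of UMIs from mitochondrial genes, and members were chosen as stated in the report. Doublets were not removed, since the automatic Scrublet threshold marked at most 0.0115% of barcodes. UMIs were summed over members per library, as CPM, and over other nuclei with under 1% Ryr2. Ratios had 0.5 UMI added to each sum. A gene was compared with at least 5 observed or expected UMIs in each of the libraries with at least 10 members, and between sham 2 and RVVO 2 with at least 20 UMIs together. Nuclei of other types had at least 3 UMIs of at least 2 of their markers and at least 2 times the UMIs of any other list, the cardiomyocyte list left out. Shares with a UMI were taken after thinning to 1000 UMIs. The named genes were the rule genes, the 25 genes of highest ratio with at least 5 UMIs in each library, list genes with at least 5 UMIs or at 0, genes with an adjusted p under 0.05, the 8 highest and 8 lowest ratios between libraries, and sex genes.

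Groups were compared with edgeR 4.0.16 (R 4.3.3; quasi-likelihood test, TMM factors, filterByExpr, Benjamini-Hochberg) on libraries with at least 3 members, with DESeq2 1.42.0 as an alternative, and shares with an exact permutation test. Python 3.11.15, numpy 2.4.6, scipy 1.17.1, scanpy 1.11.5 and matplotlib 3.10.9 were used. Tested on simulated data for the RVVO against sham comparison (6136 genes, 194 changed), edgeR called 18 genes, all of them changed, with 18% of the genes of 4-fold change and 0% of those of 2-fold. The simulation gave every gene the same dispersion (0.0851) and every library the same base levels. It did not model UMIs gathered in single nuclei, so it gives no share of false calls for the data. Other limits on markers, mitochondrial UMIs, Ryr2, depth, doublets, mixed nuclei, reference nuclei, scaling and filters were tried. Gene positions are from GENCODE vM21 (GRCm38), which held 98.7% of the genes.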

Additional observations from a re-analysis of the deposited data

How the results depend on the processing

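The difference in share was 0.155 percentage points and lay between -0.0854 and 0.396 when each library was left out in turn. It reversed to -0.0854 without RVVO 2, and was above 0 under every other setting tried, at 0.0100 without nuclei that also held 3 UMIs of at least 2 markers of another type (cardiomyocyte and lymphatic lists left out), where 4 members of sham 2 and 6 of RVVO 2 were left. The same restriction lowered the adipocyte-list genes at least 2-fold higher in both libraries from 41 to 20, with 29 measured, and the genes past 2-fold between sham 2 and RVVO 2 from 692 of 6417 counted (10.8%) to 38 of 164 (23.2%), of which 4 were among the 692. The restriction was added for the last of these after seeing the data, as were leaving out very deep barcodes and setting counts under 3 UMIs to 3. The genes called between groups numbered 33, 3 with DESeq2, 13 with at least 5 marker UMIs, 33 with RLE factors, 30 without factors and 22 without a filter on low counts. For the 25 named genes, 100 of 100 alternative log2 ratios were positive. Without mixed nuclei 22 of the 25 were lower by over 1.5 times, and they ran from 1.08 to 6.37, against 4.70 to 8.01 as reported. The 0.5 UMI added to each sum lowers ratios over so few nuclei, so their smaller size says nothing about the level of these genes there. No paired analysis was possible because the groups share only replicate number 2 among libraries with at least 3 members. Leaving out a library, mixed nuclei or very deep barcodes was not run for the edgeR test, since the design allowed no fit for leaving out sham 2, mixed nuclei or very deep barcodes, and 1 library against 1 without either RVVO library. With 110 nuclei, 4 of them in RVVO 1, depth limits every value for low genes.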

Other observations

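A further 8 nuclei met the limits on marker UMIs but held more Ryr2, 4 in sham 2, 1 in RVVO 1 and 3 in RVVO 2. They had 3372 to 53643 UMIs (median 13570.5) and 4 to 32 UMIs of the 5 adipocyte genes (median 9), with 1.01 to 1.60% Ryr2. Of genes outside the adipocyte lists, Fmn1, an actin-nucleating formin, had 0 UMIs in the members of sham 2, 0 in RVVO 1 and 33 in RVVO 2, and Opcml, a cell adhesion gene, had 19, 12 and 4. For Opcml these were 79.8, 120 and 8.41 CPM, and all 12 UMIs of RVVO 1 lay in 1 nucleus. Fmn1 had 54.4 and 20.4 CPM in the other nuclei of sham 1 and sham 2, and 23.7 and 96.7 CPM in those of RVVO 1 and RVVO 2.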
